A study of Homo sapiens with 8 samples.

Results

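Of the 10429 sgRNAs in a pooled CRISPR-Cas9 knockout screen for regulators of PRMT5 protein, 187 targeted alcohol dehydrogenases, aldehyde dehydrogenases and aldo-keto reductases. They were taken by gene symbol (beginning with ADH, ALDH or AKR and followed by the member number, or ADHFE1). The rule used no measured value, but it was chosen with earlier results of these data known. The 187 sgRNAs cover 27 of 1420 library genes, 8 ADH genes with 54 sgRNAs, 14 ALDH genes with 98 and 5 AKR genes with 35. All genes had 7 sgRNAs except ADH1C, which had 5. The screen was run in chemo-resistant COV362 cells, an established line labelled as high-grade serous ovarian cancer and as wild type in genotype. These cells expressed Cas9, were transduced with the library once and were split into 4 replicates only after selection, so all libraries descend from the same transduced cells of a single line. After culture the cells were stained for PRMT5 and sorted into those with the least PRMT5 (PRMT5lo, 4 libraries) and those with the most (PRMT5hi, 4 libraries), and sgRNAs were sequenced from genomic DNA. An sgRNA that is more abundant in PRMT5hi cells marks a gene whose disruption goes with more PRMT5 staining, and one more abundant in PRMT5lo cells the opposite.

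The 3 families act on linked substrates. Alcohol dehydrogenases oxidise alcohols to aldehydes or ketones with NAD, aldehyde dehydrogenases oxidise aldehydes to carboxylic acids, and aldo-keto reductases reduce carbonyl groups to alcohols with NADPH. Together they clear ethanol, formaldehyde and the aldehydes of lipid peroxidation. They also act in making retinoic acid and in making or removing steroid hormones. High aldehyde dehydrogenase activity, above all of ALDH1A1, is a common marker of stem-like and drug-resistant ovarian cancer cells. Several AKR genes are induced by NRF2, the transcription factor that KEAP1 sends for degradation.

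Each value summarises the 4 libraries of its population and was made by the authors, so single libraries cannot be shown. The sequences of the sgRNAs were not used here, and cutting of more than 1 relative by the same sgRNA was not tested. From the smallest variance the authors' method allows, the libraries of a population held 19117396 reads in PRMT5lo and 16166859 in PRMT5hi, on average 458 and 388 reads per sgRNA and library. Abundance is given in reads scaled to the library total (CPM), and the log2 ratio is that of CPM + 1 in PRMT5lo over CPM + 1 in PRMT5hi, so that a positive value means more of the sgRNA in PRMT5lo cells. A gene's log2 ratio is the mean over its sgRNAs, with its SD over sgRNAs, which are not biological replicates, and an SE carried over from the variances between libraries, which treats sgRNAs as independent. Each sgRNA was tested by the beta-binomial test of CB2, the difference of its read fractions over its standard error, and each gene by combining the one-sided p-values of its sgRNAs with Fisher's method. A gene was called at the limits of the study's figure legend, a p (one-sided) under 0.01 together with a mean beyond 0.25 in that direction. The study's methods give a stricter p limit of 0.001 toward PRMT5lo. *KEAP1*, the gene with the lowest p toward PRMT5hi, gives the scale, with a mean of -0.62.

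None of the 27 genes was called in either direction, with Fisher's or with Stouffer's method of combining sgRNAs, and the medians of the 3 families lay near 0 and near that of the library. Across all 1420 genes, 10 (0.704%) were called toward PRMT5lo and 12 (0.845%) toward PRMT5hi. The median of the gene means was 0.029 for ADH, 0.012 for ALDH and -0.051 for AKR, beside -0.0033 for all genes. ADH means ran from -0.25 to 0.16, ALDH means from -0.23 to 0.24 and AKR means from -0.22 to 0.21, so the families covered almost the same span. 4 of 8 ADH genes, 7 of 14 ALDH genes and 1 of 5 AKR genes had a mean above 0, against 48.5% of all genes. A mean beyond 0.2 in either direction was found in 5 of 27 members (1 ADH, 2 ALDH and 2 AKR genes), which is 18.5%, against 8.73% of all genes, and no test was made of this count. Averaged over sgRNAs, the log2 ratio was -0.035 (SE 0.048) for AKR, 0.00047 (SE 0.032) for ADH and 0.00043 (SE 0.028) for ALDH. The largest difference between families, AKR minus ADH, was -0.036 with an SE of 0.058, which is smaller than its error. The SD over single sgRNAs was 0.30 for ADH, 0.27 for ALDH and 0.29 for AKR, beside 0.29 for all targeting sgRNAs and 0.25 for the 500 control sgRNAs.

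No member passed an adjusted p of 0.05. After Benjamini-Hochberg adjustment of Fisher's p over all genes the lowest was 0.322 toward PRMT5lo and 0.317 toward PRMT5hi, while 2 genes of the library (0.141%) passed toward PRMT5lo and 3 (0.211%) toward PRMT5hi. At an unadjusted one-sided p under 0.05, 3 of 27 members passed toward PRMT5lo (*ALDH7A1*, *AKR1A1* and *ALDH1B1*), against 8.59% of all genes. Toward PRMT5hi 4 of 27 passed (*AKR1C3*, *ADHFE1*, *ALDH9A1* and *ADH6*), against 9.3%. Neither count is far from what the background share gives for 27 genes.

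Among the alcohol dehydrogenases, 7 of the 8 genes lie side by side within 364 kb of chromosome 4 (GRCh38, 99070978 to 99435342), and their means ran in both directions. *ADHFE1*, an iron-containing mitochondrial hydroxyacid-oxoacid transhydrogenase outside that cluster, had the most negative mean of the 3 families, -0.25 (SD 0.52 over sgRNAs, SE 0.10 from the libraries), a 1.19-fold higher abundance in PRMT5hi cells. Its sgRNA 1 stood at 19.4 CPM in PRMT5lo and 44.8 CPM in PRMT5hi, its sgRNA 2 at 67.6 CPM in PRMT5lo and 91.3 CPM in PRMT5hi and its sgRNA 3 at 91.7 CPM in PRMT5lo and 117 CPM in PRMT5hi, with log2 ratios of -1.17, -0.43 and -0.35. sgRNA 4 stood at 139 CPM in PRMT5lo and 139 CPM in PRMT5hi, sgRNA 5 at 91.3 CPM in PRMT5lo and 113 CPM in PRMT5hi and sgRNA 6 at 46.4 CPM in PRMT5lo and 47.7 CPM in PRMT5hi. sgRNA 7 ran the other way, with 68.7 CPM in PRMT5lo and 47.2 CPM in PRMT5hi (log2 ratio 0.53). The 7 sgRNAs thus spread over a wider range than those of any other member gene, and 5 of 7 were lower in PRMT5lo cells. The mean passed the study's limit of 0.25 but the p did not pass its limit (one-sided p = 0.0114 by Fisher's method, adjusted p = 0.396). The ratio of sgRNA 1 rested on about 368 reads in PRMT5lo and 725 in PRMT5hi over 4 libraries each, and without this sgRNA the mean was -0.10.

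*ADH1B*, a class I alcohol dehydrogenase that oxidises ethanol in the liver, lies from 99304971 to 99321401 on chromosome 4 and had the most positive mean of its family, 0.16 (SD 0.37 over sgRNAs, SE 0.082 from the libraries). Nearly all of it came from sgRNA 4, with 97.4 CPM in PRMT5lo and 49.1 CPM in PRMT5hi (log2 ratio 0.98, SE 0.33, two-sided p = 0.0479, adjusted p = 0.746 in the beta-binomial test). sgRNA 1 stood at 119 CPM in PRMT5lo and 114 CPM in PRMT5hi, sgRNA 2 at 80.3 CPM in PRMT5lo and 76.2 CPM in PRMT5hi and sgRNA 3 at 135 CPM in PRMT5lo and 143 CPM in PRMT5hi. sgRNA 5 stood at 96.9 CPM in PRMT5lo and 91.8 CPM in PRMT5hi, sgRNA 6 at 332 CPM in PRMT5lo and 339.6 CPM in PRMT5hi and sgRNA 7 at 188 CPM in PRMT5lo and 184 CPM in PRMT5hi. These 6 lay between -0.082 and 0.077 on the log2 scale, and without sgRNA 4 the mean was 0.021. The p of the gene by Fisher's method was 0.281 (one-sided, adjusted p = 0.919).

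The other class I enzymes lay near 0. *ADH1A* had a mean of 0.085 (SD 0.21, range -0.28 to 0.33), and its sgRNA 1, one of the most abundant members with 216 CPM in PRMT5lo and 171 CPM in PRMT5hi, had a ratio of 0.33. *ADH1C*, with 5 sgRNAs, had a mean of -0.026 (SD 0.21, range -0.36 to 0.20), of which sgRNA 1 with 154 CPM in PRMT5lo and 198 CPM in PRMT5hi lay at -0.36 and the other 4 between -0.091 and 0.20. *ADH5*, the class III enzyme, which removes formaldehyde and S-nitrosoglutathione and is present in nearly all tissues, had a mean of 0.12 (SD 0.16, range -0.04 to 0.40) with 4 of its 7 sgRNAs above 0. *ADH4* and *ADH7*, which oxidise retinol as well as ethanol, had means of -0.073 (SD 0.075, range -0.20 to 0.0029) and 0.083 (SD 0.24, range -0.23 to 0.42). The sgRNAs against *ADH4* had the smallest spread of all member genes, with an SD of 0.075, and none had a p under 0.05. *ADH6* had a mean of -0.10 (SD 0.23, range -0.49 to 0.21), with the lowest value at sgRNA 6, 133 CPM in PRMT5lo and 188 CPM in PRMT5hi (log2 ratio -0.49).

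The 14 aldehyde dehydrogenases held the most positive mean of all members and one of the most negative. *ALDH1B1*, a mitochondrial enzyme that oxidises acetaldehyde, lies from 38392702 to 38398661 on chromosome 9 and had a mean of 0.24 (SD 0.26 over sgRNAs, SE 0.10 from the libraries), a 1.18-fold higher abundance in PRMT5lo cells, rank 37 of 1420 from the positive end. sgRNA 7 stood at 99.8 CPM in PRMT5lo and 69.6 CPM in PRMT5hi, sgRNA 4 at 64.6 CPM in PRMT5lo and 45.0 CPM in PRMT5hi and sgRNA 1 at 77.3 CPM in PRMT5lo and 59.1 CPM in PRMT5hi, the 3 largest ratios (0.51, 0.51 and 0.38). sgRNA 2 stood at 71.2 CPM in PRMT5lo and 58.1 CPM in PRMT5hi, sgRNA 6 at 58.8 CPM in PRMT5lo and 55.9 CPM in PRMT5hi and sgRNA 3 at 95.7 CPM in PRMT5lo and 94.5 CPM in PRMT5hi. sgRNA 5 alone was lower in PRMT5lo cells, with 130.0 CPM in PRMT5lo and 144 CPM in PRMT5hi. No sgRNA of the gene had a two-sided p under 0.05, and the one-sided p of the gene was 0.0354 by Fisher's method (adjusted p = 0.508). *ALDH2*, the other mitochondrial acetaldehyde enzyme, had a mean of 0.048 (SD 0.32, range -0.42 to 0.51) with 3 of its 7 sgRNAs above 0, of which sgRNA 4 had 83.9 CPM in PRMT5lo and 58.8 CPM in PRMT5hi (log2 ratio 0.51).

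*ALDH9A1*, which oxidises an aldehyde intermediate of carnitine synthesis, lies from 165662216 to 165698562 on chromosome 1 and had a mean of -0.23 (SD 0.22 over sgRNAs, SE 0.092 from the libraries), rank 47 of 1420 from the negative end. sgRNA 2 stood at 101 CPM in PRMT5lo and 148 CPM in PRMT5hi, sgRNA 1 at 71.0 CPM in PRMT5lo and 98.4 CPM in PRMT5hi and sgRNA 5 at 78.7 CPM in PRMT5lo and 95.8 CPM in PRMT5hi. Their log2 ratios were -0.55, -0.47 and -0.28. sgRNA 4 stood at 165 CPM in PRMT5lo and 196 CPM in PRMT5hi, sgRNA 6 at 62.4 CPM in PRMT5lo and 66.2 CPM in PRMT5hi, sgRNA 3 at 165 CPM in PRMT5lo and 168 CPM in PRMT5hi and sgRNA 7 at 119 CPM in PRMT5lo and 116 CPM in PRMT5hi. All but sgRNA 7 were lower in PRMT5lo cells. The one-sided p was 0.0142 by Fisher's method (adjusted p = 0.401), so with this method the gene passed neither limit of the study. By Stouffer's method the one-sided p was 0.00771, and the mean still did not pass its limit.

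The 3 retinaldehyde dehydrogenases, which make retinoic acid, had means of -0.20 (SD 0.23, range -0.68 to -0.028) for *ALDH1A1*, -0.062 (SD 0.26, range -0.29 to 0.43) for *ALDH1A2* and 0.10 (SD 0.16, range -0.11 to 0.38) for *ALDH1A3*. *ALDH1A1* was the only member gene with no sgRNA above 0. Its ratios ran from -0.68 to -0.028, the first from sgRNA 5 with 32.5 CPM in PRMT5lo and 52.5 CPM in PRMT5hi (two-sided p = 0.133 in the beta-binomial test). Its p by Fisher's method was 0.182 (one-sided, adjusted p = 0.78), and no single sgRNA had a two-sided p under 0.05. *ALDH1A1* minus *ALDH1A3* was -0.30 (SE 0.16), the largest difference in units of its SE (1.86) among 9 pairs of close relatives. *ALDH8A1*, an enzyme of tryptophan breakdown, had a mean of 0.14 (SD 0.22, range -0.18 to 0.41).

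In the ALDH3 group, *ALDH3A1*, the aldehyde dehydrogenase of the cornea, had a mean of -0.15 (SD 0.36, range -0.83 to 0.20), of which sgRNA 3 with 12.3 CPM in PRMT5lo and 22.7 CPM in PRMT5hi gave -0.83 and sgRNA 1 with 114 CPM in PRMT5lo and 154 CPM in PRMT5hi gave -0.43. sgRNA 3 was among the least abundant members, with about 235 reads in PRMT5lo and 366 in PRMT5hi, and the other 5 sgRNAs lay between -0.073 and 0.20. Without sgRNA 3 the mean of *ALDH3A1* was -0.033. *ALDH3A2*, the fatty aldehyde dehydrogenase, had a mean of 0.065 (SD 0.29, range -0.31 to 0.63), with the highest ratio of the ALDH sgRNAs, 0.63, from sgRNA 5 with 40.0 CPM in PRMT5lo and 25.6 CPM in PRMT5hi. *ALDH3B2* had a mean of 0.028 (SD 0.23, range -0.38 to 0.36). The remaining ALDH genes act in the breakdown of amino acids and GABA. *ALDH4A1*, of proline breakdown, had a mean of -0.044 (SD 0.35, range -0.54 to 0.52), *ALDH5A1*, the succinate semialdehyde dehydrogenase of GABA breakdown, of -0.01 (SD 0.23, range -0.39 to 0.26), and *ALDH6A1*, of valine breakdown, of -0.0038 (SD 0.23, range -0.29 to 0.38). *ALDH7A1*, of lysine breakdown, had a mean of 0.083 (SD 0.17, range -0.27 to 0.26) with 6 of its 7 sgRNAs above 0.

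Of the 5 aldo-keto reductases, 4 had a mean below 0 and *AKR1A1* had one above it. *AKR1A1*, the general aldehyde reductase, lies from 45550826 to 45570049 on chromosome 1 and had a mean of 0.21 (SD 0.16 over sgRNAs, SE 0.13 from the libraries), a 1.16-fold higher abundance in PRMT5lo cells. sgRNA 6 stood at 55.8 CPM in PRMT5lo and 43.1 CPM in PRMT5hi, sgRNA 5 at 89.7 CPM in PRMT5lo and 70.0 CPM in PRMT5hi and sgRNA 4 at 130.0 CPM in PRMT5lo and 103 CPM in PRMT5hi, with log2 ratios of 0.37, 0.35 and 0.33. sgRNA 7 stood at 131 CPM in PRMT5lo and 116 CPM in PRMT5hi and sgRNA 3 at 35.5 CPM in PRMT5lo and 33.0 CPM in PRMT5hi. The 2 rarest were sgRNA 1 with 14.5 CPM in PRMT5lo and 15.3 CPM in PRMT5hi and sgRNA 2 with 11.7 CPM in PRMT5lo and 9.78 CPM in PRMT5hi, and sgRNA 1 was the only one lower in PRMT5lo cells. The one-sided p was 0.0135 by Fisher's method (adjusted p = 0.342) and 0.00777 by Stouffer's method. With only sgRNAs of at least 20 CPM, which leaves out these 2, the mean was 0.26 with a one-sided p of 0.00616 by Fisher's method, and the gene then passed the limits used here but not the stricter p limit of 0.001 in the study's methods.

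*AKR1B1*, the aldose reductase that turns glucose into sorbitol, lies from 134442350 to 134459239 on chromosome 7 and had a mean of -0.22 (SD 0.31 over sgRNAs, SE 0.12 from the libraries). sgRNA 4 stood at 25.5 CPM in PRMT5lo and 45.3 CPM in PRMT5hi, a log2 ratio of -0.80. sgRNA 5 stood at 136 CPM in PRMT5lo and 172 CPM in PRMT5hi, sgRNA 2 at 68.2 CPM in PRMT5lo and 84.1 CPM in PRMT5hi and sgRNA 3 at 81.6 CPM in PRMT5lo and 98.7 CPM in PRMT5hi, with ratios of -0.33, -0.30 and -0.27. The remaining 3 lay near 0, sgRNA 1 with 130.3 CPM in PRMT5lo and 133 CPM in PRMT5hi, sgRNA 6 with 155 CPM in PRMT5lo and 143 CPM in PRMT5hi and sgRNA 7 with 39.7 CPM in PRMT5lo and 38.1 CPM in PRMT5hi. Its one-sided p was 0.0812 by Fisher's method (adjusted p = 0.641). *AKR1B10*, a relative that reduces retinaldehyde and is a target of NRF2, had a mean of -0.042 (SD 0.32, range -0.26 to 0.64). 5 of its sgRNAs were lower in PRMT5lo cells, and its highest ratio, 0.64, came from sgRNA 3, the rarest member, with about 209.8 reads in PRMT5lo and 110.0 in PRMT5hi. Without sgRNA 3 the mean of *AKR1B10* was -0.15. *AKR1C1*, which inactivates progesterone, had a mean of -0.051 (SD 0.19, range -0.35 to 0.23), and *AKR1C3*, which makes androgens and prostaglandin F, of -0.07 (SD 0.32, range -0.46 to 0.26).

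*AKR1C3* and *ALDH7A1* passed the p limit of 0.01 without passing the limit on the mean, and neither passed it when sgRNAs were combined by Stouffer's method. *AKR1C3* had a one-sided p of 0.00782 toward PRMT5hi by Fisher's method (adjusted p = 0.317), and of 0.0957 by Stouffer's method, although 4 of 7 sgRNAs were higher in PRMT5lo cells. Its lowest p-values were those of sgRNA 5 with 127 CPM in PRMT5lo and 175 CPM in PRMT5hi (two-sided p = 0.00259) and sgRNA 6 with 65.3 CPM in PRMT5lo and 90.5 CPM in PRMT5hi (two-sided p = 0.022, beta-binomial test). sgRNA 4 with 143 CPM in PRMT5lo and 175 CPM in PRMT5hi lay on the same side, and sgRNA 2 with 94.5 CPM in PRMT5lo and 78.9 CPM in PRMT5hi on the other. The sgRNAs of this gene thus lay on both sides of 0. *ALDH7A1* had a one-sided p of 0.00919 toward PRMT5lo by Fisher's method (adjusted p = 0.322) and of 0.0152 by Stouffer's method. Its sgRNA 4 stood at 147 CPM in PRMT5lo and 122 CPM in PRMT5hi, with a log2 ratio of 0.26 and the lowest two-sided p of all member sgRNAs (0.000615, adjusted p = 0.139, beta-binomial test). Its other sgRNAs lay between -0.27 and 0.17. Across the library 2.96% of genes had a p under 0.01 by Fisher's method toward PRMT5lo and 2.68% toward PRMT5hi. Of these, 76.2% and 68.4% did not pass the limit on the mean either.

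Single sgRNAs passed at close to the rate of the library. At a two-sided p under 0.05, 6 of 187 member sgRNAs (3.21%) were higher in PRMT5lo cells, against 3.3% of all sgRNAs, and 9 (4.81%) were lower, against 3.33%. By family the counts higher and lower were 3 and 3 of 54 for ADH, 2 and 3 of 98 for ALDH, and 1 and 3 of 35 for AKR. The 6 were *ALDH7A1* sgRNA 4, *AKR1A1* sgRNA 4, *ADH1A* sgRNA 1, *ADH5* sgRNA 7, *ALDH2* sgRNA 4 and *ADH1B* sgRNA 4. The 9 were *AKR1C3* sgRNAs 5 and 6, *ADH6* sgRNA 6, *ADH1C* sgRNA 1, *ALDH3A1* sgRNAs 1 and 3, *ALDH9A1* sgRNA 1, *ADHFE1* sgRNA 1 and *AKR1B1* sgRNA 4. These 15 fell in 13 genes, so only *AKR1C3* and *ALDH3A1* had more than 1. None passed the beta-binomial test after adjustment over all sgRNAs (lowest adjusted p = 0.139), as against 5 (0.0479%) of the library. Of the 15, 5 had the smallest variance the authors' method allows in at least 1 population, a variance of read counting alone, among them the 4 with the lowest p (*ALDH7A1* sgRNA 4 in both populations, *AKR1C3* sgRNA 5, *ADH6* sgRNA 6 and *ADH1C* sgRNA 1 in PRMT5hi). The same held for 39 of the other 172 members (22.7%). Across the library the shares were 61.9% of sgRNAs with a p under 0.05 and 24.7% of the rest.

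Close relatives did not differ clearly from each other. Among the class I enzymes *ADH1B* minus *ADH1C* was 0.18 (SE 0.12) and *ADH1A* minus *ADH1B* -0.072 (SE 0.11). *ALDH3A1* minus *ALDH3A2*, neighbours on chromosome 17, was -0.21 (SE 0.13). *AKR1B1* minus *AKR1B10*, both on chromosome 7, was -0.18 (SE 0.16), and *AKR1C1* minus *AKR1C3*, both on chromosome 10, 0.019 (SE 0.13). All 9 differences stayed within 2 SE, and the pairs were chosen with the values known, so no p is given.

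The sgRNAs of the families were well represented in both populations. The median sgRNA stood at 105 CPM in PRMT5lo and 111 CPM in PRMT5hi for ADH, at 87.1 and 87.2 CPM for ALDH, and at 87.4 and 84.1 CPM for AKR. For all targeting sgRNAs these medians were 84.9 CPM in PRMT5lo and 85.0 CPM in PRMT5hi, and for control sgRNAs 123 and 123 CPM. The most abundant member was *ADH1B* sgRNA 6 with 332 CPM in PRMT5lo and 339.6 CPM in PRMT5hi. Only 5 of 187 members (2.67%) averaged under 20 CPM over both populations, against 3.38% of all targeting sgRNAs. They were 2 against *AKR1A1*, 1 against *AKR1B10*, 1 against *ALDH3A1* and 1 against *ALDH3B2*. By family that is 0 of 54 ADH, 2 of 98 ALDH (2.04%) and 3 of 35 AKR sgRNAs (8.57%), so the AKR share was above that of all targeting sgRNAs.

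Other genes of carbonyl and alcohol metabolism had means in a similar range, but *AOX1*, described below, had a lower p by Fisher's method than any member gene. Of 20 such genes (carbonyl reductases, short-chain dehydrogenases of the DHRS group, monoamine, aldehyde and xanthine oxidases, *CYP2E1* and catalase), none was called in either direction, and their median was -0.01. *CBR3*, a carbonyl reductase, had the most negative mean, -0.21 (SD 0.18, one-sided p = 0.0392 by Fisher's method, adjusted p = 0.489), and *DHRS9*, a retinol dehydrogenase, the most positive, 0.14 (SD 0.46, p = 0.039, adjusted p = 0.52). Of 10 genes of retinoid metabolism and retinoid receptors, none was called, with a median of -0.069 and means from -0.18 for *CYP26A1* to 0.14 for *DHRS9*, which is in both lists. Of 4 genes around KEAP1 and NRF2, *KEAP1* alone was called. The enzymes *TXNRD1*, *NQO1* and *GSR*, whose genes NRF2 induces as it does *AKR1B10*, *AKR1C1* and *AKR1C3*, had means of -0.19, -0.01 and 0.056.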

How the data were processed

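Per the methods, the authors used CB2 to map reads of 8 libraries to the sgRNA sequences, count them and compare the populations. FastQC and hg38 stand in the submitters' processing notes. Versions are not stated there or in the methods. The deposited CPM values are means over the 4 libraries of a population. The deposited read fractions are shares of all reads estimated by the authors, each with a variance between libraries. The columns of the authors' own comparison (ratios, test values, p-values) and their gene table were not used. Column letters were assigned to PRMT5hi and PRMT5lo from the study's legend and sheets. Its methods state the opposite sign, and with the letters exchanged every sign would turn.

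CB2's test (Welch-Satterthwaite degrees of freedom) and Fisher's method were rerun in Python 3.11.15 with scipy 1.17.1 on all 10429 sgRNAs and 1420 genes, each with Benjamini-Hochberg adjustment. The same steps were run on simulated data with gene changes larger than any member mean. That run does not test how well changes of the members' size are found. Depth was worked out from sgRNAs whose variance was the smallest possible, with totals within 0.05 of whole reads. PCR reads are not separate molecules, so depth covers counting error only. All 27 genes are named, and every sgRNA is given for the most positive and the most negative gene of each family. Members, lists and alternatives were chosen with earlier results of these data known. Mismatches between sgRNAs were not counted, since sequences were not used here. Gene positions are from RefSeq (GRCh38.p14). Libraries were split from the same transduced cells, so p-values do not cover variation between transductions.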

Additional observations from a re-analysis of the deposited data

How the results depend on the processing

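No member gene was called toward PRMT5hi under any setting that kept the limits on p and mean (leaving out the sgRNA farthest from 0, the median in place of the mean, Stouffer's method, ratios centred on control sgRNAs, at least 20 CPM, or pseudocounts of 5 or 10). Toward PRMT5lo the count was 1 (*AKR1A1*, mean 0.26) with a minimum of 20 CPM and 0 otherwise. The share of all genes called with that minimum was not worked out. With the p limit of 0.001 in the study's methods, added after seeing the data, the count was 0 with and without that minimum. At a one-sided p under 0.05 with no limit on the mean it was 3 toward PRMT5lo and 4 toward PRMT5hi, since that rule is looser. Of single sgRNAs, 3 toward PRMT5lo and 7 toward PRMT5hi had a two-sided p under 0.05 with a variance from the abundance trend. Both directions together, this was 5.35% of members, against 6.28% of all sgRNAs. Among these members were 7 of the 15, and *ALDH7A1* sgRNA 4 then had a p of 0.17 in the beta-binomial test. At a two-sided p under 0.01 in the beta-binomial test the counts were 1 and 2, and the share of all sgRNAs at that limit was not worked out. The family medians moved by less than the SE of the family's mean over sgRNAs under every setting run, although the ALDH median turned to -0.0079 with the median over sgRNAs, and the AKR median was -0.0045 without the sgRNA farthest from 0. With the median over sgRNAs the sign turned for *ADH1C* (0.059), *AKR1C3* (0.089), *ALDH2* (-0.058) and *ALDH3A2* (-0.0036). Without the sgRNA farthest from 0 it turned for *ADH1C* (0.058), *ALDH2* (-0.028), *ALDH3A2* (-0.029), *ALDH4A1* (0.039) and *ALDH5A1* (0.053). None of these genes was called. No paired analysis was possible because the files hold no value of a single library, and for the same reason no replicate could be left out.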

Other observations

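*AOX1*, the aldehyde oxidase, was the gene of the carbonyl list with the lowest p. Its one-sided p toward PRMT5lo was 0.000126 by Fisher's method (adjusted p = 0.0594), rank 3 of 1420 in that direction. Its mean of 0.14 (SD 0.33) did not pass the limit of 0.25. *AOX1* was named after its values were seen. The class I ADH genes averaged more reads per sgRNA than all targeting sgRNAs, which stood at 94.0 CPM in PRMT5lo and 94.1 CPM in PRMT5hi. In the same order the averages were 142 and 131 CPM for *ADH1A*, 149.7 and 142 CPM for *ADH1B*, and 141 and 146 CPM for *ADH1C*. This was not particular to them, since *ALDH8A1* averaged 139 and 127 CPM and control sgRNAs 133 and 130 CPM. The *ADH1B* average includes sgRNA 6, the most abundant member, with 332 CPM in PRMT5lo and 339.6 CPM in PRMT5hi. Cells sampled before culture were not analysed here, so a difference already present in the library and a change during culture cannot be told apart.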
